A study of Rattus norvegicus with 4 samples.

Results

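The comparison described here sets the middle ear mucosa of rats inoculated with Pseudomonas aeruginosa (PA) against that of rats given medium alone, separated into epithelial, immune and skeletal muscle genes. It covers the features (transcribed loci) that are at least 300 bp long and average 1 FPKM or more across the series' 4 libraries, which are 15786 of the 27832 features in the expression table. FPKM scales sequenced fragments to transcript length and to the mapped fragments of the library. Levels are thus put on a common scale, although the make-up of a library also shifts its values. The 4 libraries came from SD rats and differ in the inoculum, which was medium (media), methicillin-resistant Staphylococcus aureus (MRSA), PA, or both species (MRSA + PA). Bullae were collected 1 week after an injection through the tympanic membrane, and RNA was taken from scraped mucosa. Each inoculum has 1 library, and the sources do not state whether a library holds 1 rat or a pool. The treatment label describes MRSA for every sample, so groups were taken from titles, source names and the inoculum label.

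Sizes only are given, because 1 library against 1 library leaves no replicate spread and no test is possible. A difference is the log2 ratio of PA over media after 0.1 FPKM was added to both values, and a feature counts as higher or lower when the libraries are at least 2-fold apart. Values listed at 0 get no fold. The 4 values of a gene are given in the order media, MRSA, PA and MRSA + PA unless named.

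The middle ear is lined by a thin respiratory-type epithelium of ciliated, secretory and basal cells. Ciliated and secretory cells clear the cavity through the Eustachian tube, and basal cells renew the sheet. Skin and keratinized mucosa are covered instead by stratified epithelium, whose upper cells make the keratins KRT1 and KRT10 and crosslink small proteins into a cornified envelope. Pseudomonas aeruginosa is a Gram-negative bacterium that is often isolated from chronic suppurative otitis media. Immune cells of the mucosa include T cells, plasma cells, macrophages and neutrophils. Skeletal muscle, in contrast, is not part of the lining, and its sarcomere genes are among the most abundant transcripts of any fibre.

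Promoter sequences of a member of each block are shown to give the start-site context of genes that the results turn on. They run from 250 bases before to 50 bases after the RefSeq start site in the rat build GRCr8, 5′ to 3′ on the gene's strand. Capitals mark matches to TGANTCA (the AP-1 site) in the promoter of SPRR1A, a cornified envelope precursor (chr2:180752576-180752875, minus strand). In the promoter of LCN2, which encodes the iron-sequestering lipocalin (chr3:36081731-36082030, minus strand), they mark GGGNNNTTCC (an NF-kB site, searched on both strands and present here in its reverse complement). In the promoter of CKM, muscle creatine kinase (chr1:88189211-88189510, plus strand), they mark CAGCTG (an E-box read by myogenic factors, its own reverse complement).
SPRR1A: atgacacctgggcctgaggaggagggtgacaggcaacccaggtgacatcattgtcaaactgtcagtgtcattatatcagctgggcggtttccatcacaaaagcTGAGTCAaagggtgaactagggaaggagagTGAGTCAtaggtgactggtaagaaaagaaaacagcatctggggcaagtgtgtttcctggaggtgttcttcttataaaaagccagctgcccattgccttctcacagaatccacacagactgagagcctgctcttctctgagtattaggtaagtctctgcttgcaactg
LCN2: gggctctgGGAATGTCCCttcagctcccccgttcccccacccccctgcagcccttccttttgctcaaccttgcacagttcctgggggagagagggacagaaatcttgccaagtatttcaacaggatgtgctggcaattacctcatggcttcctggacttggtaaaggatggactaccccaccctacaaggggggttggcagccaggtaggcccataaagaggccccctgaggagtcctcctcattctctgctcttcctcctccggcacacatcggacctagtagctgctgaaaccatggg
CKM: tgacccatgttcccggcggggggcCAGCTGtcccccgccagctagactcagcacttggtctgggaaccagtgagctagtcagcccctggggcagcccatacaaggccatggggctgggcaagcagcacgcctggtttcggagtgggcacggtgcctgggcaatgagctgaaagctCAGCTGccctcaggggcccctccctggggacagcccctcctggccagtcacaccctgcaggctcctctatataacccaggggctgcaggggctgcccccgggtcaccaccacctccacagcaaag

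The SPRR1A promoter held 2 matches, which begin 147 and 117 bases before the start site. In LCN2 the single match begins 242 bases before it, and in CKM 2 matches begin 226 and 75 bases before it. None of these matches overlapped another motif searched. TGANTCA occurred in 7.33% of all 33469 promoters of the RefSeq table and in 8 of the 35 promoters of the cornified list (22.9%; 34 of its 39 genes had one). GGGNNNTTCC occurred in 5.37% of all promoters and in 4 of 14 of the epithelial antimicrobial list (28.6%; 14 of 24 genes). CAGCTG occurred in 15.1% of all promoters and in 36 of the 80 promoters of the muscle lists (45.0%; 76 of 91 genes). No motif was particular to its list. TGANTCA occurred in 71.4% of matrix metalloproteinase promoters, GGGNNNTTCC in 37.5% of chemokine promoters and CAGCTG in 50.0% of helper and regulatory subset promoters. Other lists had fewer: TGANTCA and GGGNNNTTCC were at 0.00% in endothelium promoters and CAGCTG at 0.00% in matrix metalloproteinase promoters. A match describes letters in this window and no binding was measured.

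PA and media differed by at least 2-fold at 2765 of the 15786 features. Of all features kept, 1566 (9.92%) were higher in PA and 1199 (7.60%) were lower. The PA counts past 2-fold given below for each gene list are to be read beside these shares. The median difference over all kept features was 0.07 (log2), and the quartiles lay at -0.29 and 0.43. Of the features, 271 of the higher and 232 of the lower had no gene symbol, 129 of the higher were listed at 0 in media and 61 of the lower were listed at 0 in PA. Without a filter on the mean the counts were 2882 and 2591, and with a mean of at least 5 FPKM they were 801 and 553. Scaling moved the split: 56.6% of the features counted were higher in PA, and 65.1% after the media and PA libraries were set to equal FPKM sums outside the muscle lists, and 52.4% under median-of-ratios scaling.

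Among the furthest differences, muscle genes of the lists lay on the lower side and epithelial genes on the higher side, although most of these features belong to no list. At 16-fold or more, 66 of the 192 lower features bore the symbol of a skeletal muscle gene of the lists and none that of an epithelial gene. On the higher side, 22 of 187 bore an epithelial symbol, 1 an immune symbol, 0 a muscle symbol and 53 no symbol. Of the 187, 114 were listed at 0 in media, and of the 192, 58 were listed at 0 in PA. The ratio of such features depends on the 0.1 FPKM added. Immune genes were numerous at smaller sizes, with 111 of the 1566 features at 2-fold and 6 of the 274 at 8-fold.

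The 3 blocks differed in direction as shares of each library's FPKM sum over features of at least 300 bp. Skeletal muscle genes (80 kept of 91 listed) held 2.08% in media and 0.0603% in PA, against 0.849% and 0.0515% with MRSA and MRSA + PA, and 74 of the 80 were lower in PA and 1 higher. Epithelial genes (121 kept of 153) held 3.89% in media and 2.62% in PA, and 1 gene for a secreted protein, BPIFA1, made up most of the media share. Without BPIFA1 the epithelial share was 0.589% in media and 1.55% in PA, against 0.883% and 0.844% with MRSA and MRSA + PA, with 57 of 120 genes higher in PA and 9 lower. Immune genes (227 kept of 281) held 1.82% in media and 3.66% in PA, against 4.80% and 3.95% with MRSA and MRSA + PA, with 107 higher in PA and 13 lower. Without APOE, B2M and CD74, the immune share was 0.980% in media and 1.92% in PA, against 2.07% and 1.83% with MRSA and MRSA + PA, so that PA then stood above MRSA + PA. The media sum contains 1 unnamed feature of 946 bp at 51319 FPKM, 6.59% of that sum, which was listed at 0 in the other 3 libraries. In RNA of a whole scraping, fewer cells of a type and less RNA per cell cannot be told apart, and neither can the inoculum and the animal or the depth of the scraping.

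**Figure D1:**
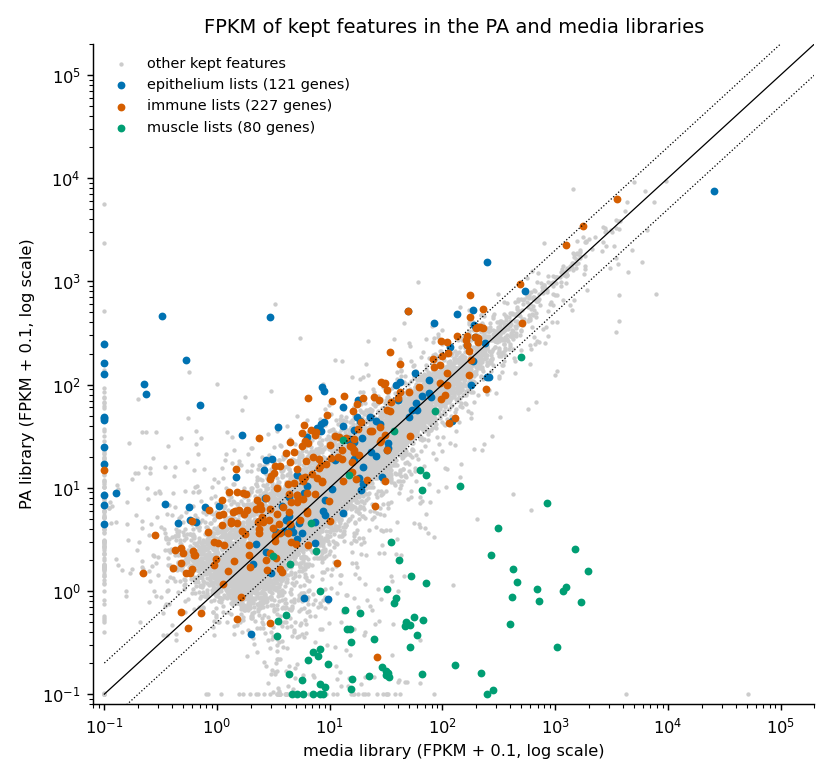
FPKM of each kept feature in the PA library (vertical) against the media library (horizontal), both on log scales after 0.1 FPKM was added. Points are features, coloured for the 121 epithelial, 227 immune and 80 muscle genes of the lists, the solid line marks equal levels and the dotted lines 2-fold. Muscle genes lie in a band far below the line, reaching from CKM at 1028 FPKM in media and 0.187 in PA, whereas epithelial genes such as KRT1 form the upper left edge.

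Cornified epithelium gave the largest list difference above media, and it was a difference of the PA library alone. Of the 39 genes listed, 35 were matched and 22 were kept, and 21 of the 22 were higher in PA and none lower, with a median difference of 6.88 (log2). For 16 of the 22, the other 3 libraries averaged under 1 FPKM, so they passed the filter through PA and their count is no independent support. Over all 35 matched genes 29 were higher, 0 were lower and the median was 4.29. Over the 13 kept members above 0 in both libraries the median was 6.15. The same kept members had medians of 0.24 in MRSA, with 4 higher, and 0.00 in MRSA + PA, with 5 higher (8.34% and 7.70% of all kept features were higher in these libraries). Their summed level was 2037 FPKM in PA, against 45.7 with media, 37.6 with MRSA and 33.8 with MRSA + PA. In all, 289 of the kept features (1.83%) were at least 2-fold above each of the other 3 libraries in PA, and 21 of these 22 genes were among them.

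Keratins of the upper layers led the list. KRT1, the type II keratin of cornifying cells, had 0.224 FPKM in the media library, 0.917 in the MRSA library, 465 in the PA library and 0.0308 in the MRSA + PA library, a log2 difference of PA over media of 10.49. KRT10, its type I partner, had 2.85, 2.1, 456 and 2.1 FPKM, a difference of 7.27. In both genes the 3 libraries other than PA were under 3 FPKM, while KRT2, another keratin of the same layers, stood at 1.71, 0.0861, 0.909 and 0.0504 FPKM, below the filter. KRT78 was at 0, 0, 6.66 and 0 FPKM and KRT80 at 2.97, 4.03, 18.9 and 3.40 FPKM, and PA was again the highest of the 4. TCHH, of the inner root sheath of hair, was below the filter at 0.342, 0.529, 0.238 and 0.363 FPKM.

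Envelope precursors and the proteins that bind keratin filaments followed. SPRR1A, whose promoter is printed above, had 0, 0.125, 161 and 0.204 FPKM. CNFN (cornifelin) was listed at 0 in 3 libraries and at 47.7 FPKM in PA. Filaggrin, which bundles keratin filaments, was at 0.0263, 0.0232, 8.84 and 0.0237 FPKM, and its relatives FLG2 and RPTN were at 4.32 and 8.36 FPKM in PA and at most 0.0224 elsewhere. Not every precursor reached such levels. IVL (involucrin) was at 0.644 FPKM in PA, HRNR at 1.29 and SPRR4 at 1.93, all below the filter, and SPRR3 and CRNN, precursors abundant in oesophagus, were listed at 0 in all 4 libraries.

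Neighbouring genes were at high levels together. On chromosome 1, SBSN, DMKN and KRTDAP, secreted products of differentiating keratinocytes, lie between positions 90357212 and 90394075 of the table, which names no genome build. SBSN had 0.428, 0.922, 172 and 0.489 FPKM (log2 difference 8.35), DMKN 0.125, 0.263, 100.4 and 0.0752 FPKM (8.80) and KRTDAP 0, 0, 45.3 and 0 FPKM. The 4 features of this interval summed to 0.553 FPKM in media and 319 in PA. On chromosome 2, 11 features lie between IVL and SPRR2J (212105117 to 212451454), 5 of them unnamed and 1 shorter than 300 bp. Of the 11, 8 were at 1 FPKM or more in PA, 0 in media, 1 in MRSA and 0 in MRSA + PA. The longer of the 2 SPRR2J features had 0, 0.144, 139 and 0 FPKM but spans 104986 bp, and overlapping loci of this interval could share reads.

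Kallikreins, serine proteases that cut the desmosomes of shed cells, were present as a run of neighbours. KLK5 was listed at 0 in media, MRSA and MRSA + PA and at 24.7 FPKM in PA, and KLK7, which KLK5 can activate, had 0.610, 0.705, 63.3 and 0.857 FPKM. Between KLK14 and KLK5 on chromosome 1 (100684911 to 100854410) 8 of 10 features were at 1 FPKM or more in PA, against 0 in media and MRSA and 1 in MRSA + PA. KLK6 was at 72.9 FPKM in PA, KLK13 at 28.3, KLK14 at 13.8 and KLK9 at 9.80, and KLK12 at 0.109 (named after their values were seen). These genes overlap in part in the table, so reads could be split between neighbours. The proteases were accompanied by inhibitors: SPINK7, an inhibitor of the same family of enzymes, had 0, 0.766, 248 and 0.108 FPKM. SPINK5, the main skin inhibitor of kallikreins, was at 0.110 FPKM in PA in the highest of its 4 features. That feature lies on chromosome 2 and SPINK7 on chromosome 18, and whether its name is right was not tested. CSTA, a cysteine protease inhibitor of the envelope, was at 0, 0.470, 66.0 and 0 FPKM in the highest of its 3 features.

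Enzymes and junctions of the cornifying layer were also above media. ASPRV1, the protease that processes filaggrin, had 0.136, 0.362, 81.3 and 0 FPKM. CASP14, a caspase of the same step, was at 0.352, 0.391, 4.48 and 0.834 FPKM, and TGM1, which crosslinks the envelope, at 0.479, 0.979, 4.79 and 1.61 FPKM. Of these 3 enzymes, CASP14 and TGM1 stayed under 5 FPKM in PA. The lipoxygenases and transglutaminases ALOX12B, ALOXE3, TGM3 and TGM5 were below the filter, with at most 2.00 FPKM in PA. Corneodesmosin (CDSN), the glue of corneocytes, had 1.57, 2.21, 32.6 and 2.14 FPKM, a log2 difference of 4.29, and DSC1, the desmosomal cadherin of the upper layers, was listed at 0 in 3 libraries and had 16.9 FPKM in PA. LYPD3, a surface protein of stratified epithelium, had 3.35, 7.68, 39.0 and 8.85 FPKM. CALML3, a calmodulin-like protein of epithelium, was the 1 kept member not higher in PA, with 32.6, 16.1, 27.1 and 13.1 FPKM.

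Markers of hair were at or near 0, although KRT75 was not. Of 18 hair keratins (chosen after the values were seen) 12 were listed at 0 in PA. KRT75, of the companion layer of the hair follicle, had 0.127, 0.0668, 3.07 and 0.139 FPKM, and the highest of the other 17 in PA was 0.0671 FPKM. The 30 features named for keratin-associated proteins of the hair shaft were listed at 0 in all 4 libraries. Whether cells of another stratified surface entered the PA scraping was not tested.

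**Figure D2:**
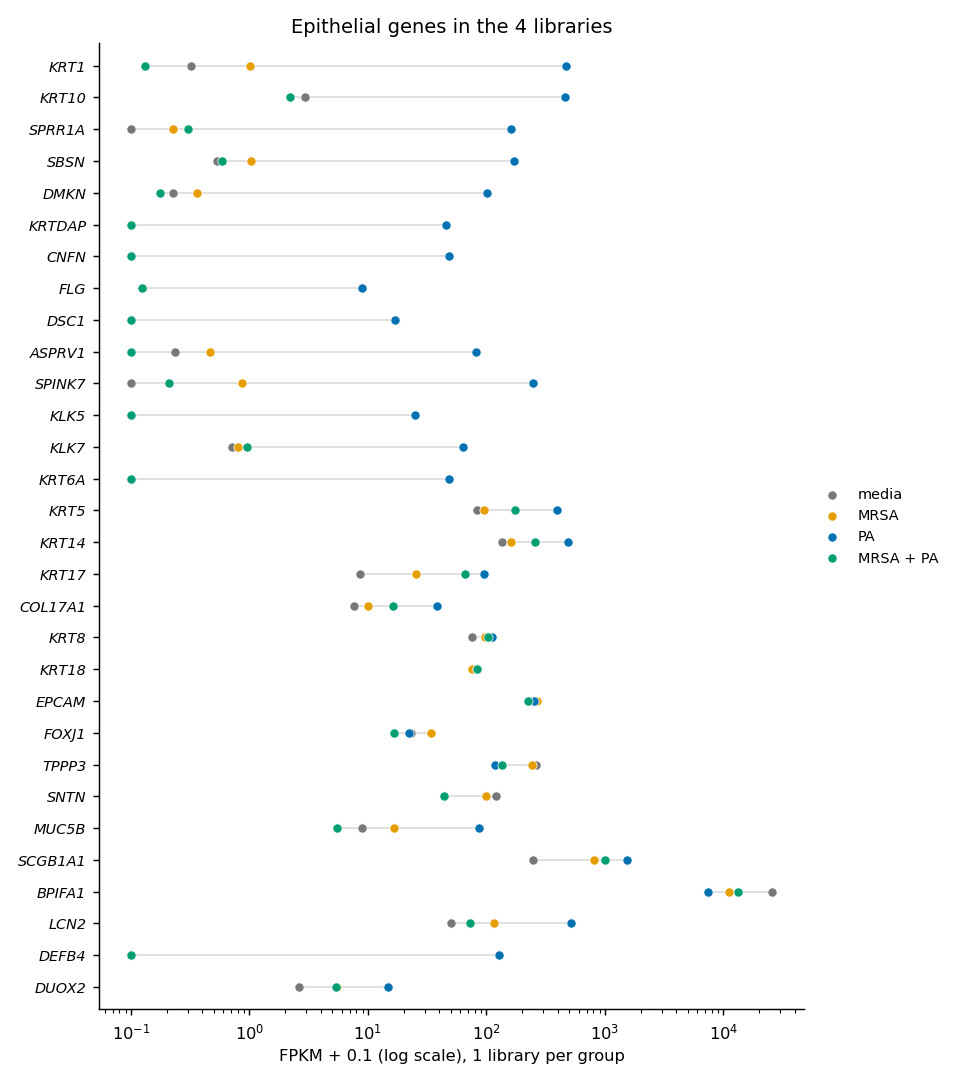
FPKM (log scale, 0.1 added) of 30 epithelial genes in the media, MRSA, PA and MRSA + PA libraries, 1 point per library. From KRT1 down to KRT6A the PA point stands alone at the right, KRT5 to COL17A1 have PA at the right by smaller distances, and KRT8, KRT18 and EPCAM nearly coincide in the 4 libraries. Points at the same value cover one another, with MRSA + PA on top.

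The basal and stratified list lay above media to a smaller degree, in PA and to a lesser degree in MRSA + PA. Of 23 genes 20 were kept, 15 of them higher in PA and 1 lower, with a median of 1.71. MRSA had a median of 0.17 with 3 higher, and MRSA + PA 0.81 with 8 higher. KRT5, a keratin of basal cells, had 83.6, 95.4, 393 and 175 FPKM in the higher of its 2 features, and its partner KRT14 136, 161, 483 and 256 FPKM, with log2 differences of 2.23 and 1.83. For both, PA was the highest library and MRSA + PA the next. The KRT14 feature spans 34947 bp and could hold reads of neighbouring genes, and KRT16, also listed, was not matched. KRT17, a keratin of wounded and activated epithelium, had 8.45, 25.1, 95.2 and 65.3 FPKM. KRT6A, of the same class, was listed at 0 except in PA, with 48.0 FPKM in the higher of its 2 features. That feature lies on chromosome 1, whereas those of KRT1 and KRT5 lie on chromosome 7, so its gene name is uncertain. Hemidesmosome and basement membrane genes gave 7.55, 9.83, 38.1 and 16.2 FPKM for COL17A1 and 6.14, 12.5, 30.7 and 20.2 FPKM for LAMB3. ITGB4, their integrin partner, was closer, at 28.0, 25.2, 41.4 and 28.5 FPKM. KRT4, a keratin of non-cornifying mucosa, was the 1 gene lower in PA, at 5.80, 1.02, 0.753 and 1.57 FPKM, and KRT13, its partner, stayed below the filter at 0.166, 0.115, 1.81 and 0.0301 FPKM. TP63, the transcription factor of basal cells, was at 14.3, 14.1, 28.8 and 16.5 FPKM, so that PA was just past 2-fold.

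Genes shared by all epithelial cells of the lining were close to media. Of the 17 simple epithelium genes, all kept, 4 were higher, none was lower and the median was 0.54. EPCAM, a surface marker of epithelial cells, had 237, 266, 254 and 222 FPKM. KRT8 was at 76.1, 96.2, 111 and 103 FPKM and KRT19 at 78.9, 75.8, 75.7 and 73.2 FPKM. These 3 differed by less than 2-fold between any of the 4 libraries. Among the 4 higher genes were KRT7 (12.9, 23.4, 60.4 and 45.4 FPKM) and CDH1 (38.6, 57.3, 99.4 and 64.9 FPKM).

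Motile cilia genes were, as a list, slightly below media. Of 29 genes 27 were kept, 24 lay below media and 3 above, with a median of -0.43. Only 4 were past 2-fold lower and 1 higher, against 7.60% and 9.92% of all kept features in PA. In MRSA + PA the median was -0.85 with 10 lower, against 7.56% of all kept features, and in MRSA 0.22 with none lower, against 4.68%. The 4 lower genes were SNTN, a protein of the cilium tip (121, 99.2, 44.0 and 43.7 FPKM), TPPP3 (260.5, 240.3, 119 and 134 FPKM), DNAH9, an outer dynein arm motor (7.24, 4.81, 2.80 and 2.46 FPKM), and TEKT4 (12.9, 11.5, 5.55 and 4.82 FPKM). PA and MRSA + PA were within 1.5-fold of each other in these 4 genes and below the other 2 libraries. FOXJ1, the master regulator of ciliated cells, was at 23.0, 34.0, 22.0 and 16.6 FPKM. CCNO, needed to multiply centrioles while such cells form, was the 1 gene higher, at 0.469, 6.09, 6.48 and 3.29 FPKM.

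Secretory genes lay on both sides of media. Of 21 listed, 18 were kept, 9 were higher in PA, 3 were lower and the median was 1.11. MUC5B, the gel-forming mucin of airway glands, had 8.82, 16.5, 86.1 and 5.40 FPKM, a log2 difference of 3.27. SCGB1A1, the club cell secretoglobin, had 248, 807, 1537 and 1000.0 FPKM, a difference of 2.63. In both genes PA was the highest library, and MUC5B in MRSA + PA lay below media. MUC5AC was at 0.551, 2.07, 4.55 and 0.847 FPKM, the membrane mucin MUC4 at 2.64, 5.19, 18.3 and 3.82 FPKM, TFF3, a goblet cell peptide, at 0.246, 0.887, 6.87 and 0.230 FPKM, and PIGR, which carries IgA across the epithelium, at 8.27, 19.1, 35.2 and 9.16 FPKM. Against these stood BPIFA1, an abundant secreted protein of upper airway epithelium with surfactant and antimicrobial activity, at 25725, 11118, 7472 and 13362 FPKM, so PA held the lowest level. SCGB3A2, a secretoglobin of the distal airway, was at 249, 123, 118 and 103 FPKM, and BPIFA2 at 1.90, 0.602, 0.282 and 1.90 FPKM.

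Antimicrobial genes of the epithelium included a pair of defensins listed above 0 in PA alone. Of 24 genes 17 were kept, 7 were higher, 2 were lower and the median was 0.59. DEFB4, an inducible beta-defensin, was listed at 0 in 3 libraries and had 127 FPKM in PA. Its neighbour on chromosome 16, DEFB14, was likewise listed at 0 in 3 libraries and had 59.6 FPKM in PA (positions 75234830 to 75248770 hold both). DEFB1, the constitutive defensin, was at 58.5, 46.7, 65.8 and 61.2 FPKM, and DEFB3 was listed at 0 throughout. LCN2, whose promoter is printed above, had 49.6, 115, 513 and 72.7 FPKM, a log2 difference of 3.37. SLPI, a secreted protease inhibitor, had 185, 1041, 526 and 963 FPKM, so that here the MRSA and MRSA + PA libraries were above PA. DUOX2 and its maturation factor DUOXA2, which make hydrogen peroxide at the epithelial surface, were at 2.53, 5.38, 14.7 and 5.29 FPKM and 0.940, 2.01, 6.54 and 1.98 FPKM. S100A8 and S100A9, the calprotectin chains, differed by less than 2-fold between PA and media (196 FPKM in media and 287 in PA for S100A8).

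Lysozyme features went opposite ways. LYZ2 was at 9.62, 106, 0.731 and 0.850 FPKM in the higher of its 2 features, a log2 difference of -3.55 in PA. LYZ1, its near-identical neighbour on chromosome 7 and outside the lists, was at 1436, 10972, 7802 and 10356 FPKM. Reads can be split between such copies, so the value of either alone is uncertain.

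T cell genes were the most uniform immune group. All 29 kept members, of 30 listed, were higher in PA, with a median of 1.97, and the medians were 1.81 in MRSA and 1.84 in MRSA + PA. CD3D, a chain of the T cell receptor complex, had 5.60, 37.5, 33.6 and 38.4 FPKM, a log2 difference of 2.57, and the costimulatory receptor gene ICOS 5.75, 24.3, 40.7 and 20.9 FPKM, a difference of 2.80. CTLA4, an inhibitory receptor, was at 1.61, 8.32, 8.88 and 5.79 FPKM. In CD3D the 3 inoculated libraries lay close together, whereas ICOS was highest in PA. CD4 was higher by 1.11 (log2), with 81.8, 149, 177 and 124 FPKM, and macrophages also express it. T cell receptor variable segments gave 31 kept features, of which 28 were higher in PA and none lower, with a median of 3.02, against 2.29 in MRSA and 2.73 in MRSA + PA. For 8 of the 31 media was listed at 0.

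Helper subset genes were unequal. Of 22 genes 13 were kept, 7 were higher and none was lower, with a median of 1.47. IL17A, the cytokine of Th17 cells that acts on epithelium and neutrophils, had 1.69, 8.49, 8.58 and 5.07 FPKM, a log2 difference of 2.28. CCR6, a homing receptor of those cells, had 4.75, 13.2, 22.2 and 11.1 FPKM, and its ligand gene CCL20 30.9, 59.7, 104 and 68.0 FPKM. In CCR6 and CCL20 the PA library was the highest of the 4. FOXP3, the factor of regulatory T cells, was at 0.537, 1.25, 2.13 and 1.21 FPKM, IL2RA at 1.73, 4.03, 6.0 and 3.82 FPKM and CCR4, of Th2 and regulatory cells, at 0.745, 3.40, 6.02 and 3.14 FPKM. TBX21, the factor of Th1 cells, was below media in PA and above it in the other inoculated libraries, at 0.447, 1.64, 0.334 and 1.71 FPKM. IFNG was listed at 0 in media and PA, at 0.180 FPKM in MRSA and 0.376 in MRSA + PA, under the filter. IL5 and IL13 were listed at 0 in all 4 libraries, and IL4 was at 0.189, 0.178, 0 and 0 FPKM.

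NK and cytotoxic genes were nearer to media in PA than in the other inoculated libraries, a difference between libraries that was not tested. Of 19 genes 14 were kept, and 4 were higher in PA and 2 lower, with a median of 0.39. In MRSA 12 of the 14 were higher, with a median of 1.89, and in MRSA + PA 14 of 14, with 1.97. GZMM, a granule protease, had 4.92, 25, 2.77 and 26.3 FPKM, a log2 difference of -0.80. NKG7, a granule membrane protein, had 9.87, 18.9, 4.68 and 22.8 FPKM, a difference of -1.06. CCL5, a chemokine of cytotoxic cells, had 17.2, 71.9, 12.0 and 92.5 FPKM. In all 3 genes PA was the lowest of the 4 libraries. The T cell coreceptor chains CD8A and CD8B were above media in PA, at 4.67, 27.0, 11.1 and 20.3 FPKM and 2.14, 11.9, 7.54 and 8.30 FPKM. NCR1, an activating receptor of NK cells, was at 1.23, 4.91, 4.69 and 5.85 FPKM, with little distance between the inoculated libraries.

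B and plasma cell genes were above media with a median of 1.01, 9 of 17 kept (23 listed) being higher and none lower. IGJ, the joining chain of secreted IgA and IgM, had 30.2, 229, 101 and 122 FPKM. TNFRSF13B, a survival receptor, was at 0.402, 1.69, 2.21 and 1.18 FPKM. BLK, a kinase of B cells, was at 3.55, 13.6, 3.52 and 9.08 FPKM, level with media in PA. Of 124 kept features named for immunoglobulin variable segments, 74 were higher in PA and 16 lower (median 2.03), against 98 higher in MRSA and 85 in MRSA + PA. The segment features share reads and vary with the clones present, and 40 of the 124 were listed at 0 in media. HVM21_MOUSE, a heavy chain segment, was at 0, 15.7, 258 and 34.9 FPKM.

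Macrophage genes were above media throughout. Of 27 genes 23 were kept and all 23 lay above media, but 8 were past 2-fold, with a median of 0.93. MRSA had 18 past 2-fold (median 1.18) and MRSA + PA 13 (1.07). GPNMB, a glycoprotein of macrophages, had 177, 1187, 743 and 648 FPKM, and MMP12, the macrophage elastase, 13.2, 246, 77.6 and 85.1 FPKM. For both genes PA was above media and below MRSA, whereas the paper's real-time RT-PCR put MMP12 higher with PA than with MRSA. MSR1, a scavenger receptor, was at 6.34, 22.6, 26.8 and 18.1 FPKM and CD163, the haemoglobin scavenger receptor, at 5.93, 6.47, 12.7 and 5.77 FPKM, and in these PA was the highest library. APOE, the most abundant member, had 3539.6, 12184, 6352 and 8170.2 FPKM.

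Neutrophil genes ranged from lower to far above media. Of 26 genes 21 were kept, 11 were higher, 1 was lower and the median was 1.36, or 0.55 over the 25 matched. Receptors of mature neutrophils were furthest above media: CSF3R, for the granulocyte growth factor, had 2.25, 9.04, 30.4 and 10.1 FPKM (log2 difference 3.70), and CXCR2, for the CXCL chemokines, 1.37, 4.35, 15.2 and 5.89 FPKM (3.38). IL1R2, the decoy receptor of IL-1, was at 4.01, 6.79, 21.8 and 8.71 FPKM, and PROK2, a secreted peptide of neutrophils, at 0.495, 1.34, 4.64 and 1.83 FPKM. In these 4 genes PA was at least 2-fold above each other library. The primary granule genes MPO, ELANE and CTSG, transcribed in the marrow, were lower or within 2-fold: MPO had 3.55, 2.61, 1.52 and 2.75 FPKM, ELANE 1.03, 2.07, 1.06 and 1.3 FPKM and CTSG 2.86, 4.59, 2.25 and 3.10 FPKM. NADPH oxidase genes, shared with macrophages, were higher in PA and higher still in MRSA, as in CYBB with 41.5, 214, 157 and 162 FPKM. LCN2, which neutrophils store in granules and epithelium also makes, is counted in this list too and was higher in PA.

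Dendritic cell and MHC class II genes were nearer to media in PA than in the other inoculated libraries. Of 18 genes 14 were kept, 4 higher and none lower in PA (median 0.60), against 10 higher in MRSA (1.40) and 9 in MRSA + PA (1.29). CD74, the invariant chain, had 1237, 3539, 2233 and 3431 FPKM, and RT1-BA, a class II chain of the rat, 231, 627, 355 and 678 FPKM. ITGAX, the CD11c integrin, was at 3.55, 12.0, 16 and 16.2 FPKM, higher in PA by 2.14 (log2).

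Interferon response genes had a median of 0.97 in PA, with 10 of 25 kept (28 listed) higher and none lower, and 0.83 and 0.72 in MRSA and MRSA + PA. ISG15, a ubiquitin-like product, was at 11.1, 13.6, 31.7 and 14 FPKM. MX1, a GTPase induced by type I interferon, was at 2.90, 12.5, 13 and 7.64 FPKM. IFIT1, below the filter, was at 0.168, 0.401, 2.84 and 0.472 FPKM. In ISG15 and IFIT1 the PA library exceeded each of the others by over 2-fold, and in MX1 it stood with MRSA. BST2 differed little, at 179.8, 186, 172 and 191 FPKM.

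Among inflammatory cytokines, members of the IL-1 family were furthest above media. Of 23 genes 14 were kept, 7 were higher, none was lower and the median was 0.99. IL1B had 17.3, 57.1, 65.1 and 54.6 FPKM, and IL1RN, the receptor antagonist, 6.28, 59.7, 73.5 and 47.8 FPKM. IL1A, stored in epithelial cells, was at 0.184, 1.53, 3.39 and 0.783 FPKM. IL36G, an epithelial alarm cytokine, was listed at 0 in 3 libraries and had 14.7 FPKM in PA, and IL36A was likewise listed at 0 except in PA (2.17 FPKM, below the filter). IL36B was at 1.18, 16.4, 8.94 and 11.2 FPKM, with MRSA the highest. TNF was level, at 4.34, 3.79, 4.37 and 4.21 FPKM, and IL6 stayed below the filter, at 0.125, 1.06, 0.507 and 1.61 FPKM.

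Chemokines went both ways, 10 of 28 kept (31 listed) being higher, 6 lower and the median 0.24. CXCL13, which attracts B cells, had 10.3, 43.2, 69.6 and 33.4 FPKM, and CCL9, of myeloid cells, 9.26, 134, 50.3 and 69.9 FPKM. CXCL10, induced by interferon, was at 1.04, 9.40, 5.52 and 9.70 FPKM. CCL11 (eotaxin), which attracts eosinophils, was the furthest below, at 26.2, 5.46, 0.127 and 0.0909 FPKM. CXCL9, induced by interferon-gamma, was at 24.9, 17.9, 6.52 and 29.3 FPKM, and here PA was the lowest library and MRSA + PA level with media. CXCL12, a stromal chemokine, was lower in all 3 inoculated libraries, at 245, 121, 89.8 and 98.6 FPKM. The neutrophil chemokine gene CXCL1 was at 51.7, 40.5, 31.3 and 26.7 FPKM and CXCL3 at 135, 228, 294 and 203 FPKM.

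Eosinophil granule genes were lower in PA, whereas eotaxin was lower in every inoculated library. PRG2, the major basic protein, had 11.4, 13, 1.77 and 7.38 FPKM, PRG3 2.85, 3.95, 0.394 and 2.32 FPKM and EPX, the eosinophil peroxidase, 1.39, 1.58, 0.430 and 0.867 FPKM. All 3 were lower in PA, and PA was the lowest library in each. Mast cell genes of the same list were near media, as in CPA3 at 9.67, 9.61, 7.29 and 6.66 FPKM, and the list of 14 had 2 higher, 3 lower and a median of 0.04, which turned below 0 under median-of-ratios scaling and at a mean of at least 5 FPKM.

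Complement genes gave 6 of 17 kept (22 listed) higher, 2 lower and a median of 0.83. C3, the central component, had 34.0, 121, 208 and 124 FPKM, CFB, of the alternative pathway, 97.1, 223, 263 and 206 FPKM and the anaphylatoxin receptor C3AR1 4.38, 11.6, 17.7 and 8.54 FPKM. PA was the highest library in each. C7 and MASP1, made by stromal cells, were the lower genes, with 114, 48.7, 42.4 and 33.3 FPKM for C7.

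Cell division genes were above media with all 3 inocula. Of 23 genes, all kept, 15 were higher in PA and none lower (median 1.33), and 13 were higher in MRSA (1.08) and 13 in MRSA + PA (1.14). MKI67, a marker of cycling cells, was at 1.20, 3.04, 5.15 and 2.78 FPKM, and RRM2, which makes deoxynucleotides, at 2.63, 8.08, 13.5 and 9.09 FPKM. PA was the highest library for both. Which cells divided cannot be read from RNA of a whole scraping.

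**Figure D3:**
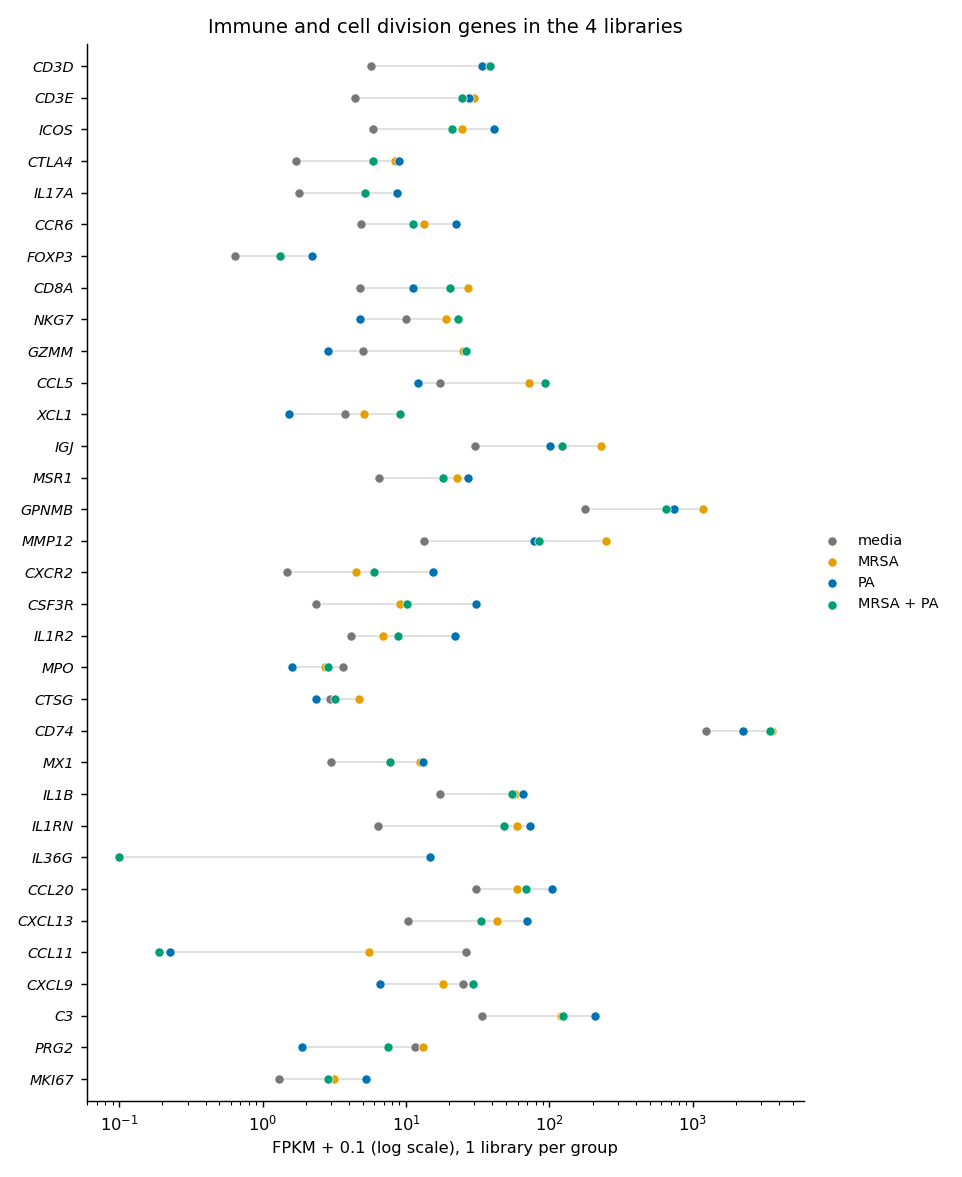
FPKM (log scale, 0.1 added) of 33 immune and cell division genes in the 4 libraries, 1 point per library. T cell genes at the top have 3 inoculated points to the right of media, NKG7, GZMM, CCL5 and XCL1 have the PA point at the left end, and CXCR2, CSF3R, IL1R2 and IL36G have it at the right end.

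Skeletal muscle genes made the largest list differences below media. Of the 91 genes in the 6 lists 80 were kept, and 74 were lower in PA, 5 within 2-fold and 1 higher. Levels in PA had a median of 0.803% of the media level over the 80 genes, against 37.3% in MRSA and 0.598% in MRSA + PA, and 7 genes were listed at 0 in PA. In the paper's real-time RT-PCR, ACTA1, EEF1A2, HRC, MYH1, SYNPO2L and MYOM2 lay further below control with MRSA than with PA. For these genes, the order of MRSA and PA in the libraries was thus not seen by that method. The fold changes that it gave with PA were also far smaller than those between the libraries. ACTA1, for example, had 719 FPKM in the media library and 0.699 in the PA library. The FPKM sum of the fast sarcomere list was 7675 in media and 13 in PA, with 2970.1 for MRSA and 7.05 for MRSA + PA. For 15 of the 80 the other 3 libraries averaged under 1 FPKM, so these passed the filter through media.

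Fast fibre genes were the furthest below. All 11 kept of 11 listed were lower in PA, with a median of -9.42, and in MRSA all 11 were lower with a median of -1.55. MYH4, the fastest myosin heavy chain, had 282, 95.9, 0.0106 and 0 FPKM. TNNC2, the calcium sensor of fast fibres, had 1698, 581, 0.682 and 0.213 FPKM, and MYLPF, a light chain, 1948, 830.0, 1.46 and 0.580 FPKM. PA and MRSA + PA were both under 2 FPKM in these genes, and MRSA lay between them and media. The log2 differences of PA over media were -11.32 for MYH4, -11.08 for TNNC2 and -10.28 for MYLPF. Of the fast list, TNNT3 had the highest level in PA, at 6.97 FPKM against 843 in media.

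The slow fibre and shared sarcomere lists had the same direction. All 8 slow genes were lower, with a median of -6.52, and all 19 kept shared genes (23 listed) were lower, with a median of -5.37. MYL2, the slow light chain, had 1487, 503, 2.43 and 0 FPKM. TTN, the giant spring of the sarcomere, had 59.6, 16.4, 0.271 and 0 FPKM in the highest of its 16 features, and NEB 37.2, 13.9, 0.671 and 0.341 FPKM. TPM2, a tropomyosin that smooth muscle and fibroblasts also make, retained the most of this list, at 496, 261, 185 and 176 FPKM, followed by KLHL41 at 72, 38, 13.2 and 14.7 FPKM.

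Calcium handling and energy genes of muscle were lower in 28 of 32 kept. ATP2A1, the fast calcium pump, had 412, 136, 0.773 and 0.311 FPKM, PVALB, the calcium buffer of fast fibres, 398, 119, 0.382 and 0.201 FPKM and RYR1, the release channel, 38.3, 13, 0.746 and 0.701 FPKM in the higher of its 2 features. SLN (sarcolipin) was at 247 FPKM in media and 142 in MRSA and was listed at 0 in PA and MRSA + PA. CKM, whose promoter is printed above, had 1028, 409, 0.187 and 0.0901 FPKM, a log2 difference of -11.81. MB (myoglobin) was at 1177, 461, 0.888 and 0.138 FPKM and COX8B, a subunit of muscle cytochrome oxidase, at 456, 204, 1.12 and 1.32 FPKM. The 4 that did not pass 2-fold were JPH2 (37.0, 35.3, 35.0 and 31.7 FPKM), COX7A1 (14.6, 13.6, 13.3 and 14.9 FPKM), CASQ2 (3.06, 1.80, 2.06 and 1.42 FPKM) and PHKA1 (6.74, 4.52, 4.46 and 3.81 FPKM), several of which are also expressed outside skeletal muscle.

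Myogenic factors and junction genes completed the block. MYOD1, MYOG and MYF6, the factors that specify muscle, were at 4.56, 5.65 and 7.01 FPKM in media, 1.23, 1.63 and 2.37 in MRSA, and were listed at 0 in PA and MRSA + PA. CHRNA1, the acetylcholine receptor chain, was listed at 0 in both as well, from 4.98 FPKM in media. Of the 10 kept (16 listed) 8 were lower and the median was -4.18, or -1.45 over the 6 above 0 in both libraries. CHRNE was at 85.0, 72.8, 55.5 and 59.2 FPKM. FBXO32, a ubiquitin ligase induced in wasting muscle and expressed elsewhere too, was the 1 muscle-list gene higher in PA, at 13, 14.6, 28.6 and 13.6 FPKM.

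**Figure D4:**
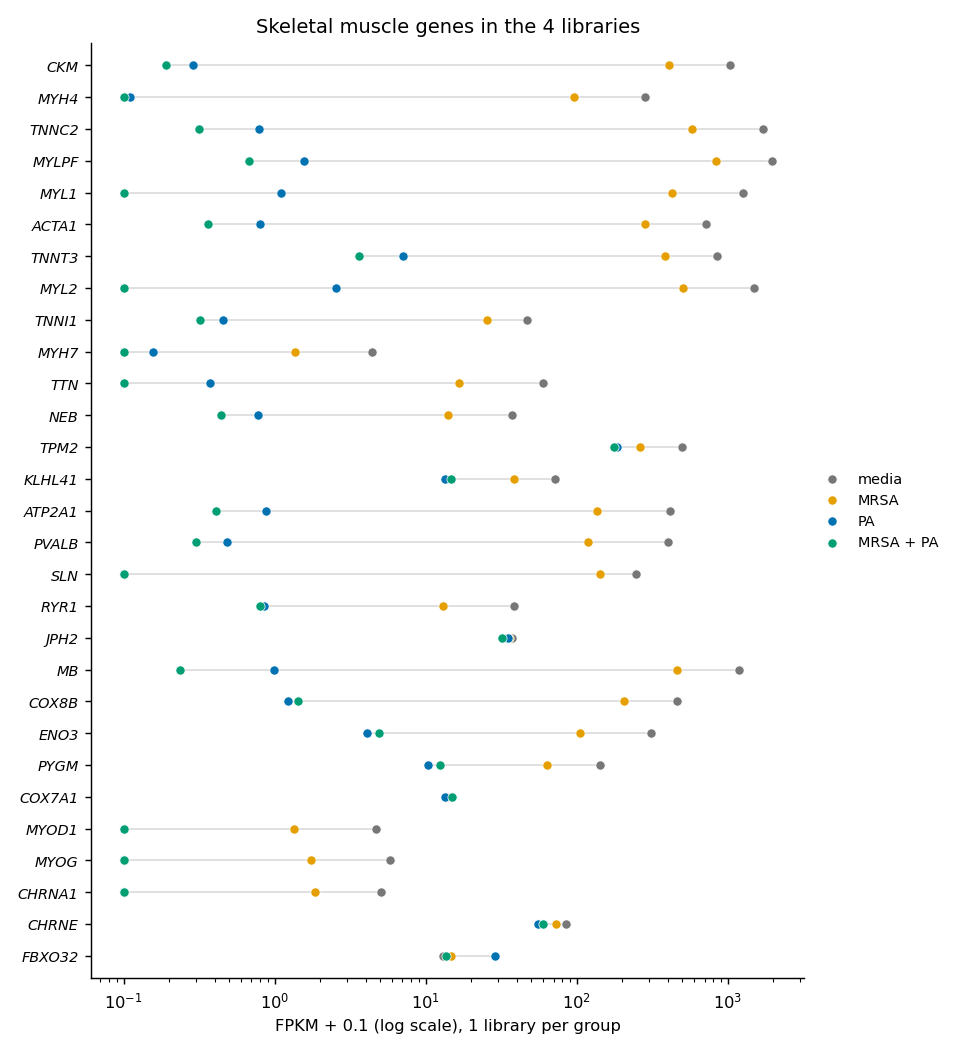
FPKM (log scale, 0.1 added) of 29 skeletal muscle genes in the 4 libraries, 1 point per library. Media and MRSA lie at the right for most genes with PA and MRSA + PA together at the left, while JPH2, COX7A1 and CHRNE show all 4 points close together and FBXO32 has PA at the right. Points at the same value cover one another, with MRSA + PA on top.

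Genes of other tissues beside the mucosa were also below media in PA, to different degrees. Tendon genes had a median of -2.82 (8 of 13 lower, 1 higher), adipocyte genes -3.67 (7 of 12 kept lower, none higher) and erythroid genes -3.25 (6 of 6 kept lower). TNMD, a tendon membrane protein, had 64.5, 17.7, 0.421 and 0.465 FPKM. ADIPOQ, the fat hormone adiponectin, had 35.4, 6.79, 1.14 and 0.271 FPKM, and HBB, a haemoglobin chain, 3672, 814, 409 and 790.2 FPKM. In TNMD and ADIPOQ the libraries stood in the order seen in muscle, with PA and MRSA + PA far below MRSA, whereas HBB in MRSA + PA was close to MRSA. In the paper's real-time RT-PCR, TNMD was further below control with MRSA + PA than with MRSA, but not with PA. For KERA of the tendon list and GPD1 of the adipocyte list, that method put MRSA furthest below control. The order of the libraries was thus not seen by it in these genes. Schwann cell genes had a median of -0.99 (6 of 12 kept lower, none higher). The part that the amount of these tissues in each scraping had in the epithelial and immune shares was not tested.

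Bone and cartilage gave mixed values. Of 15 bone genes 7 were lower and none higher (median -0.94), and BGLAP (osteocalcin), of osteoblasts, had 5905, 2282, 1529 and 2717 FPKM. CTSK, of osteoclasts, was at 1172, 1259.8, 659 and 2491 FPKM, and MRSA + PA, unlike PA, was above media. Of 9 kept cartilage genes 4 were higher and 2 lower: COL9A1 had 0.0642, 2.1, 27.3 and 1.52 FPKM and MATN3 0.325, 1.01, 3.28 and 1.21 FPKM, while ACAN, the main proteoglycan, was at 4.36, 1.54, 0.452 and 0.202 FPKM. COL2A1, the collagen of cartilage matrix, was at 12.0, 7.95, 26.5 and 2.12 FPKM, the highest in PA.

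Vessel and stromal genes were close to media. None of the 15 endothelial genes passed 2-fold (median 0.13), with PECAM1 at 29.5, 21.6, 27.1 and 27.5 FPKM. Of 14 fibroblast genes 3 were lower, namely COL1A1, COL1A2 and DCN, and the median was -0.08, which turned above 0 when libraries were set to equal FPKM sums. Smooth muscle genes, which share some names with the sarcomere, had a median of -0.56 with 2 of 9 lower, and ACTA2 was at 148, 72.4, 147 and 109.7 FPKM. The 12 housekeeping genes had a median of 0.01 and none passed 2-fold, and the sign of that median turned under median-of-ratios scaling and with the features of each gene summed. Of 11 matrix metalloproteinase genes 3 were higher and 3 lower, with a median of -0.07 that turned above 0 at equal FPKM sums. Of 8 melanocyte genes 3 were kept and 1 was lower, with a median of 0.08 that turned below 0 without a filter.

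**Figure D5:**
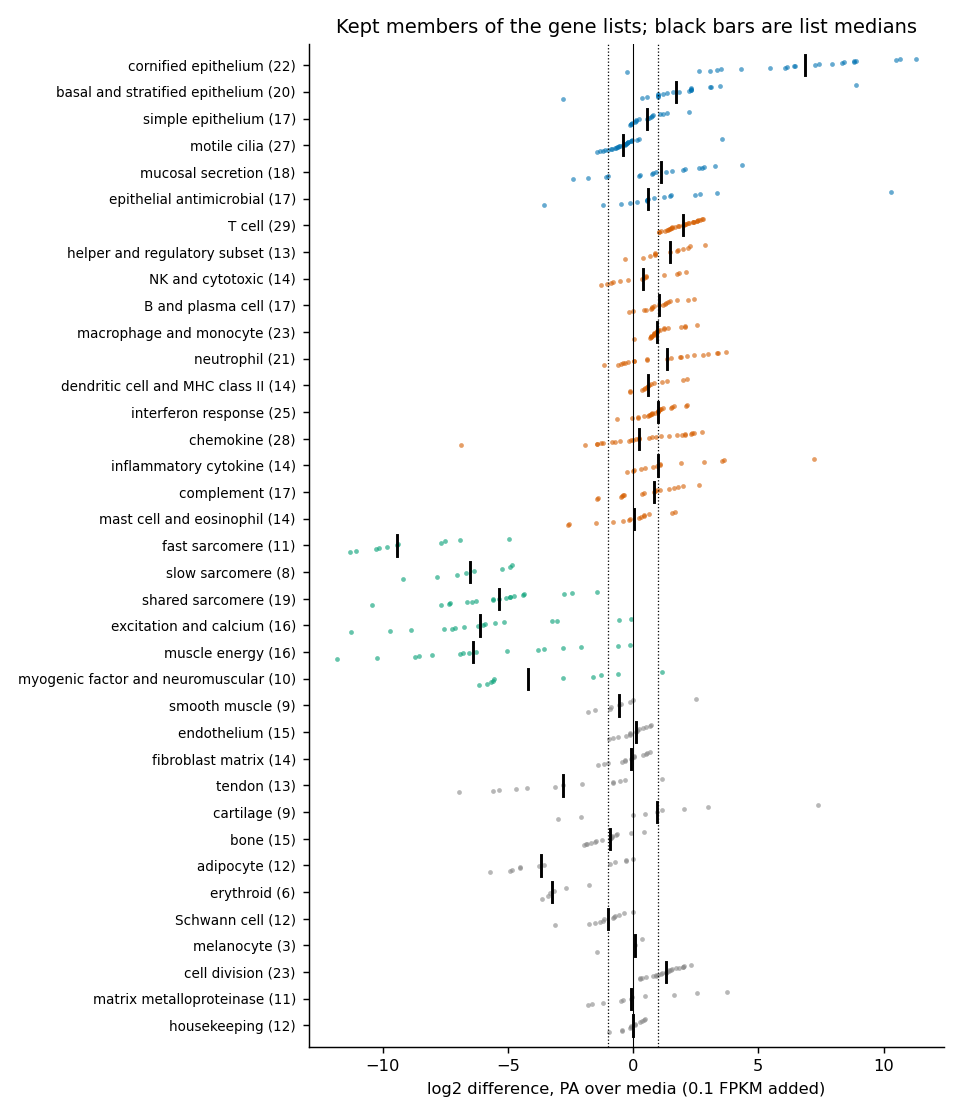
Log2 difference of PA over media (0.1 FPKM added) of every kept member of the 37 gene lists, 1 point per gene, with the number kept in brackets, black bars at the medians and dotted lines at 2-fold. Cornified epithelium stands at the far right with a median of 6.88, T cell genes form a compact group around 1.97 and the 6 muscle lists reach to the far left. Genes listed at 0 are drawn at the value that the added 0.1 FPKM gives them, and the sign of the medians closest to 0 depends on scaling or filter (mast cell and eosinophil, housekeeping, fibroblast matrix, matrix metalloproteinase and melanocyte).

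Set beside the other inoculated libraries, PA had more features of its own on the higher side. At least 2-fold above each of the other 3 libraries were 289 features (1.83%) in PA, 102 (0.646%) in MRSA and 51 (0.323%) in MRSA + PA. Among the 289 of PA, 41 bore an epithelial symbol, 22 of them of the cornified list, 9 an immune symbol and 64 no symbol. At least 2-fold below each of the others were 91 (0.576%) in PA, 34 (0.215%) in MRSA and 137 (0.868%) in MRSA + PA. Because all comparisons share the media library, its own deviations enter each of them: media was 2-fold below each other library at 803 features (5.09%) and above at 511 (3.24%).

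Outside the lists, the features furthest above media among those with at least 1 FPKM in both libraries and a mean of at least 5 were of several kinds. LGALS7, a galectin of stratified epithelium, had 5.36, 11, 282 and 3.68 FPKM, a log2 difference of 5.69. ENDOU, an endoribonuclease, was at 1.25, 0.834, 31.1 and 1.09 FPKM, and ALDH1A3, which makes retinoic acid, at 1.32, 5.11, 23.1 and 11.1 FPKM. These 3 were highest in PA. IGHE_RAT, an immunoglobulin heavy chain feature spanning 182417 bp, had 2.93, 93.4, 86.2 and 47.3 FPKM, and KNG1, kininogen, had 10.9, 63.2, 172 and 37.3 FPKM over a span of 226548 bp. Spans of this size can hold the reads of several genes.

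Those furthest below media were mostly of muscle type. RTN2, a reticulon, had 45.7, 12.3, 1.31 and 0.802 FPKM, DES, the intermediate filament of muscle, 84.5, 31.6, 3.26 and 5.33 FPKM, and TMEM38A, an ion channel of the sarcoplasmic reticulum, 73.8, 26.6, 3.57 and 4.30 FPKM. They follow the order of libraries seen in the muscle lists. RETNLA, a resistin-like protein of alternatively activated macrophages and airway epithelium, was at 71.6, 36.4, 5.51 and 14.7 FPKM. LILRB3, a leukocyte receptor, was the furthest, with 123, 537, 1.03 and 0.152 FPKM in 1 feature. It has 8 features of that name, and another stood at 8.17, 22.5, 45.9 and 30.9 FPKM, above media, so reads may be divided among near-identical copies.

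Further epithelial genes, outside the lists and named after their values were seen, showed the PA library alone at the top. DSG1A, a desmosomal cadherin of the upper layers, had 0.116, 0.264, 34.7 and 0.358 FPKM, and LY6D, a surface protein of stratified epithelium, 0.186, 1.17, 34.2 and 0.946 FPKM. SERPINB2, a protease inhibitor of keratinocytes and macrophages, had 0.154, 0.0828, 13.7 and 0.0601 FPKM. In these 3 genes the other libraries stayed under 2 FPKM. GJB2, the connexin 26 gap junction protein, was at 3.61, 4.01, 25.3 and 3.74 FPKM, and ELOVL4, which makes very long fatty acids of the skin barrier, at 1.48, 0.785, 16.9 and 1.05 FPKM. SLC26A4 (pendrin), an anion exchanger, was at 2.76, 8.80, 32.9 and 11.6 FPKM, with MRSA + PA and MRSA also above media.

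A few mucosal and myeloid genes, likewise named after their values were seen, were higher with every inoculum. PSCA, a surface protein of epithelium, had 4.04, 51.0, 39.5 and 22.9 FPKM over a span of 297802 bp, which can hold the reads of several genes. IRG1, the itaconate-producing enzyme of activated macrophages, had 1.47, 24.1, 18.2 and 17.1 FPKM. OLR1, a scavenger receptor for oxidized lipoprotein, had 1.00, 7.15, 15.5 and 8.16 FPKM and was highest in PA. ITLN1, a lectin of goblet cells, went the other way, with 22.2, 144, 3.81 and 45.1 FPKM, so that PA lay below media and MRSA above it. IGHM, named for the constant region of IgM, had 42.9, 484, 139 and 161 FPKM over a span of 239164 bp, which can likewise hold other genes.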

How the data were processed

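RNA-seq of scraped middle ear mucosa was deposited as a table of 27832 features with 1 FPKM column for each of 4 libraries. The authors made the FPKM values, and the submitters' processing notes name STAR 2.3.0e, Cufflinks 2.1.1 and edgeR. The genome build is not named, and the methods give a human reference although chromosomes and symbols fit the rat. The 12 other per-sample columns and the authors' fold changes and p and q values in 3 comparison tables were not used.

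Features of at least 300 bp with a mean of at least 1 FPKM were kept. Differences are log2 of (PA + 0.1) over (media + 0.1) on the log2(FPKM + 0.1) scale, which understates low genes. A feature was counted at 2-fold or more. A gene with several features was taken at its feature of highest mean. Since each group has 1 library there are no p-values, and replicate spread could not be measured. Of 689 listed genes in 37 lists 576 were kept. The members and lists were chosen with earlier results of these data known. Genes named were list members, the 15 named features furthest on each side, and the 10 outside the lists with at least 1 FPKM in both and a mean of at least 5. Others are marked as named after their values were seen.

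The paper's text gives ranges of raw and mapped reads over all samples, but no depth for each library. Among 1224 features under 0.3 FPKM in media and PA the commonest ratio of media to PA was 1.16, at 30 features, so whole reads were not recovered. Other pseudocounts, filters, fold limits and scalings were tried, and the calculation was tested on simulated data. Promoters came from the RefSeq table of GRCr8. Python 3.11.15, numpy 2.4.6, pandas 2.3.3 and matplotlib 3.10.9 were used.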

Additional observations from a re-analysis of the deposited data

Results flagged for a closer look

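Each result here was marked because the PA library and another inoculated library lay at least 2-fold from media in opposite directions. With 1 library a group, these differences between inocula were not tested, and every comparison shares the media library.

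KRT1 stood 10.49 (log2) above media in PA and -1.31 from it in MRSA + PA, where its level was 0.0308 FPKM against 0.224 in media. ASPRV1 was 8.43 above media in PA and was listed at 0 in MRSA + PA, so no fold is given there. Both are cornified epithelium genes with under 1 FPKM in all libraries but PA.

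NKG7 differed by -1.06 in PA and 1.20 in MRSA + PA, and XCL1, a chemokine of cytotoxic cells, by -1.29 and 1.28. LYZ2 differed by -3.55 in PA and 3.45 in MRSA, while its near-identical neighbour LYZ1 was above media in every inoculated library (2.44 in PA).

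COL2A1 differed by 1.13 in PA and -2.45 in MRSA + PA. SOST, an osteocyte product that inhibits bone formation, differed by -1.48 in PA and 1.12 in MRSA + PA, with 8.42 FPKM in the media library, 16.3 in the MRSA library, 2.95 in the PA library and 18.4 in the MRSA + PA library. MLANA, a melanocyte antigen, differed by -1.45 in PA and 1.12 in MRSA + PA, at levels of at most 3.44 FPKM.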

How the results depend on the processing

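No paired analysis was possible because each group has 1 library, and leaving out a replicate was not run for the same reason. Against 1566 higher and 1199 lower features, a mean of at least 5 FPKM gave 801 and 553, no filter on the mean 2882 and 2591, a 1.5-fold limit 2931 and 2314, and a 4-fold limit 544 and 447. None of the list medians past 2-fold changed sign. With 1 FPKM added, the medians (log2) were 4.42 for cornified epithelium, 1.33 for T cell, 0.84 for helper subset, -8.13 for fast, -4.78 for slow and -3.25 for shared sarcomere, -4.42 for excitation, -4.55 for energy, -2.11 for myogenic and -2.19 for adipocyte genes. With 0.01 FPKM added they were 8.94 for cornified epithelium, -7.14 for slow sarcomere and -6.84 for excitation. At a mean of at least 5 FPKM they were 8.35 for cornified epithelium, 0.87 for helper subset, -6.12 for shared sarcomere, -6.94 for excitation, -0.61 for myogenic and -2.23 for adipocyte genes. Without a filter they were 4.29 for cornified epithelium, 0.88 for helper subset, 0.55 for neutrophil, -2.44 for myogenic, -2.87 for adipocyte and -2.35 for erythroid genes. Over members above 0 in both libraries, an alternative chosen after seeing the data, they were 6.15 for cornified epithelium and -1.45 for myogenic genes. The cornified value without a filter is lower because members with low values enter it, and the myogenic value above 0 is nearer 0 because 4 genes listed at 0 in PA leave it. The cause of the other shifts was not tested. Scaling by median of ratios, equal FPKM sums, no length limit and summing the features of a gene left every list median within 1.5-fold of its value.

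The paper's text gives read numbers as ranges over all samples and not for each library. No counting interval was therefore made, and a value of 0 says only that a gene is listed at 0. Equal FPKM sums moved the median of all features from 0.07 to 0.21. Features under 300 bp, left out here, held 54.0% of all FPKM in media and 59.6% in PA.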

Other observations

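Some features far from media could not be given to 1 gene. The feature furthest above media, IGHV1OR21-1, spans 85843 bp and was listed at 0 in media and MRSA + PA, with 2359 FPKM in MRSA and 5671 in PA. IFNA5 stood at 0, 269, 75.5 and 31.9 FPKM, RPS9 at 61.1, 815, 989 and 1186 FPKM and RPS2 at 84.1, 96.0, 0 and 0 FPKM, each in 1 of several features of the name. H2-K1, a class I gene named after the mouse locus, was at 1.07, 4.76, 18.4 and 3.61 FPKM, and GM94, also listed at 0 in media, was at 67.8 FPKM in PA. WFDC18 has 3 features, of which 1 stood at 0, 0, 62.4 and 0 FPKM and another at 0.268, 9.78, 25.3 and 14.5 FPKM.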
